A study of Mus musculus with 6 samples.

Results

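The enzymes and reader proteins of DNA methylation and histone modification were followed on 6 mouse testis arrays through 39 genes, chosen by name: DNA methyltransferases and Uhrf1, methyl-CpG binding proteins, histone deacetylases and sirtuins, histone acetyltransferases, subunits of Polycomb repressive complex 2, methyltransferases of histone H3, histone demethylases, HP1 proteins with Trim28, and chromatin remodelling ATPases. All probe sets (groups of short probes that report 1 transcript) annotated to these genes or their synonyms were taken. Of the 39 genes 36 had at least 1 probe set of their own, 78 probe sets in all, among 12393 genes measured on the chip. Kat5, Ep300 and Suv39h1 matched no probe set and were not analysed here.

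Each array held RNA of 1 cell preparation from mice carrying the transgene CD4HAglo, in which a shortened Stra8 promoter drives a human CD4 surface protein. Both groups carry this transgene, and no sample came from mice without it. The titles call 3 samples spermatogonial stem cells (here stem-cell arrays), which were captured with magnetic beads against the marker from 50 pooled males per preparation. The other 3 are titled total testicular cells (here total-cell arrays), although their source text speaks of the marker-negative fraction. The labels name no treatment, and age and strain background are not given in the labels. Nothing in the labels says whether the 3 preparations of a group were made on different days, so the p-values measure the spread between these 3 samples.

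The labelled identity of the stem-cell arrays was checked first. Of 8 measured markers of undifferentiated spermatogonia 0 passed the adjusted threshold, and Zbtb16, Gfra1 and Ret, which define these cells, had log2 differences of -0.43, -0.17 and -0.02 at levels within 1 log2 unit of background. Stra8, whose shortened promoter drives the marker, differed by 1.01 (adjusted p = 0.0832). Of 12 macrophage markers 11 were higher at an adjusted p under 0.05 (Csf1r by 4.76, Cd68 by 4.34 and Adgre1 by 2.72 on the log2 scale), and their summed linear signal was 2836 to 10498 on the stem-cell arrays against 277 to 419 on the others. None of the 12 lay below background on any array, and Fcgr3 was the marker that did not pass. The group names are therefore used below as labels. Every array also carried strong spermatid transcripts, with Prm1, a protamine, at a mean of 13.11 in the total-cell group and 13.06 in the other. Array medians lay between 3.25 and 3.44, and a value over 2.15, a background level set by the chip's bacterial controls, was counted as detected.

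DNA methylation is copied after replication by Dnmt1, which Uhrf1 brings to hemimethylated sites, while Dnmt3a and Dnmt3b set new marks, a step for which male germ cells are well known. Methyl-CpG binding proteins read the mark and recruit deacetylases and remodelling enzymes. Acetylation opens chromatin and deacetylases remove it. Polycomb repressive complex 2 and the enzymes Ehmt2, Suv39h1, Suv39h2 and Setdb1 write repressive methylation on histone H3, at lysine 27 and lysine 9 respectively. HP1 proteins bind the lysine 9 mark. Demethylases remove methyl groups from histones, of repressive or active marks depending on the enzyme. In the testis these enzymes silence transposons and act in meiosis and in the exchange of histones for protamines.

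No member passed the threshold between the groups, and most values lay slightly lower on the stem-cell arrays. The median log2 difference of the 36 measured members (each represented by its probe set with the highest mean) was -0.23, stem-cell minus total-cell arrays, against -0.05 over all genes and -0.10 over the 9790 genes detected on all arrays. Without stem-cell array 1 the members' median was -0.14, against -0.035 over all genes. At an adjusted p under 0.05 (limma, Benjamini-Hochberg over 22626 probe sets) 0 members were lower and 0 higher, against a background of 0.137% of genes lower and 1.63% higher. Before adjustment, at p under 0.05, 6 members lay on the lower and 1 on the higher side, that is 16.7% and 2.78% of the members, against 13.1% and 11.8% of all genes. The members' share of lower values is thus near the background, and their share of higher values is below it. In 10 members all 3 stem-cell values lay below all 3 others (27.8%, background 19.2%) and in 1 all lay above (background 13.8%). Differences were negative for 28 members (77.8%, background 57%). All 36 members were detected on all arrays, and of the 9790 genes so detected 60.5% were negative. Of these genes 22.9% lay lower and 14.8% higher without overlap. Before adjustment 15.6% of them were lower and 12.9% higher at p under 0.05. Centring each array on its median moved the median of all genes by -0.11 and gave 33 negative members (91.7%, against 70.8% of all genes), and centring on hybridization controls moved it by -0.17 and gave 35 (97.2%, against 75.9%). With the fluidics module as a block, which leaves only stem-cell array 2 against total-cell array 3, 22 members were negative (61.1%, against 56.6%). Without stem-cell array 1 the count was 25 (69.4%, against 55.6%). Both centrings shift all genes of an array alike. They therefore cannot change the members' median measured from the median of all genes, which stayed at -0.18. This distance was -0.11 after quantile normalization, with the module block and without stem-cell array 1. In bulk RNA of mixed preparations, fewer cells that express a gene and less RNA per cell cannot be told apart.

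**Figure D1:**
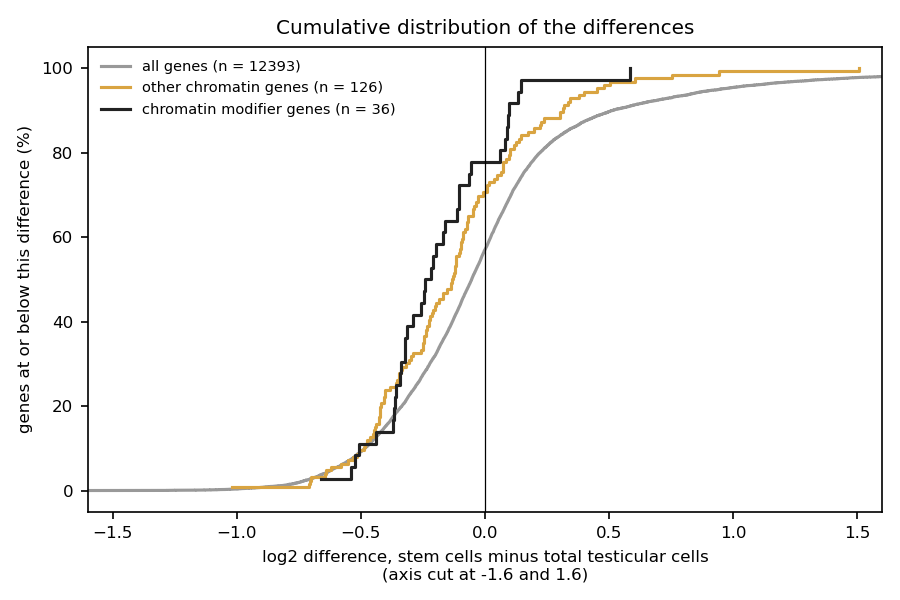
Cumulative share of genes (y axis, percent) at or below each log2 difference, stem-cell minus total-cell arrays (x axis), for the 36 chromatin modifier genes (black), 126 other chromatin genes (yellow) and all 12393 genes (grey, axis cut at both ends). The black line lies left of the grey one over the middle of its range, with a median of -0.23 against -0.05, and does not reach as far as the grey line on either side: its values run from -0.66 to 0.59.

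The spread of the members was also uneven among the stem-cell arrays. Measured from the mean of the 3 total-cell arrays, the members' median deviation was -0.42 on stem-cell array 1, -0.08 on array 2 and -0.16 on array 3. Each total-cell array deviated from the mean of the other 2 by -0.04, -0.05 and 0.07. Stem-cell array 1 held the lowest of the 3 stem-cell values for 27 of the 36 members (75%), against 42.8% of all genes. This was not particular to the members. The share was 57.1% in the other chromatin genes, 71.4% in 7 spermatocyte markers and 80% in 5 spermatid markers. It was 50% in the markers of undifferentiated spermatogonia and 33.3% in those of differentiating spermatogonia. The same array had the highest macrophage signal, with a median deviation of 5.52 for those markers against 3.56 on array 3, with array 2 between them, and the highest Leydig cell signal (2.93, 1.88 and 0.89). The spermatocyte markers deviated by -0.46, -0.08 and -0.06 in the same order. The part of these cell types in the members' values was not tested. Signal of the housekeeping control Actb at its 3' end exceeded that at its 5' end by 0.58, 0.41 and 0.45 on stem-cell arrays 1 to 3 and by 0.24 to 0.45 on the others, a measure of RNA integrity. The same measure for Gapdh was -0.45, -0.43 and 0.09 on stem-cell arrays 1 to 3 and -0.18 to -0.04 on the others, so that array 1 was highest by Actb and lowest by Gapdh. The part of RNA integrity was not tested either.

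**Figure D2:**
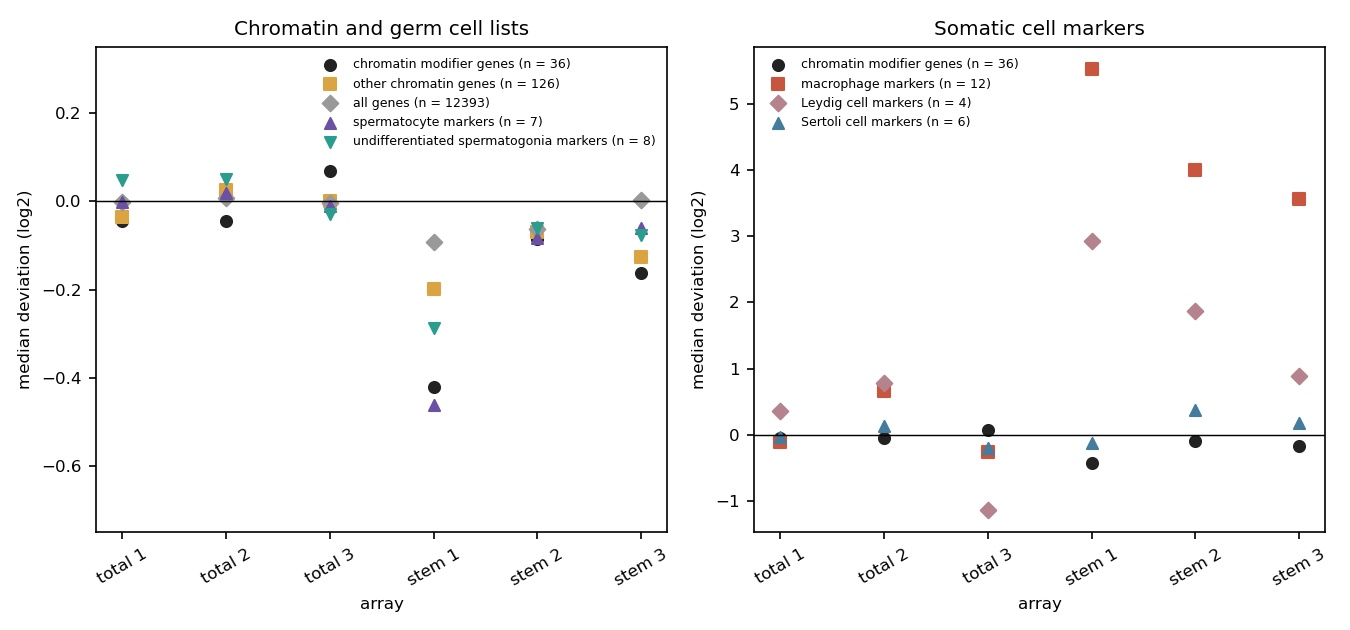
Median log2 deviation (y axis) of gene lists on each array (x axis): stem-cell arrays from the mean of the total-cell arrays, and each total-cell array from the mean of the other 2. Left, the chromatin modifier genes lie at -0.42, -0.08 and -0.16 on stem-cell arrays 1 to 3, and right, on a wider scale, macrophage markers lie at 5.52 on stem-cell array 1 and at 3.56 on array 3.

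Values were also taken within wash batches. In fluidics round 1 (arrays washed together), which held total-cell arrays 1 and 3 and stem-cell array 1, the members' median difference was -0.46. In round 3, with array 2 of each group, it was -0.09. Round 2 held stem-cell array 3 alone and gives no value. The only fluidics module with both groups, module 2, gave -0.15 from 1 array each. Within every one of these batches the median over all genes was closer to 0, at -0.09, -0.05 and -0.05.

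Uhrf1, the protein that guides Dnmt1 to replicated DNA, differed most among the members. Its log2 values were 7.05, 7.07 and 7.20 on total-cell arrays 1 to 3, and 6.07, 6.74 and 6.54 on stem-cell arrays 1 to 3, the order in which all values below are given. All 3 stem-cell values lay below the others, and array 1 was lowest. The level was 1.58-fold lower, with a log2 difference of -0.66 ± 0.19 (SE, 3 arrays a side; limma adjusted p = 0.104). Its p before adjustment was 0.00765. The other probe set of Uhrf1 read 6.35, 6.17 and 6.29 against 4.97, 5.91 and 5.28, again without overlap, with a difference of -0.88 (adjusted p = 0.0907), the smallest adjusted p of any member probe set. Without stem-cell array 2 the main probe set passed the threshold (-0.80, adjusted p = 0.0457), as did 7.59% of all genes against 1.77% with all arrays. Without stem-cell array 1 its difference was -0.47 (adjusted p = 0.111), and over the 6 leave-outs the adjusted p ranged from 0.0457 to 0.337. Within rounds 1 and 3 the Uhrf1 difference was -1.06 and -0.34.

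The methyltransferases themselves differed less. Dnmt1, the maintenance enzyme, read 4.53, 4.54 and 5.03 against 4.44, 4.68 and 5.16, overlapping groups with a difference of 0.06 and a 95% interval from -0.48 to 0.60. That interval holds changes of either sign, so the direction of a Dnmt1 change was not resolved here. The Dnmt1 difference turned negative with median centring (-0.05), with the fluidics round as a block (-0.13) and on other settings given further on. Its other probe set differed by 0.25, with all stem-cell values above the rest (adjusted p = 0.395). Dnmt3a, a de novo enzyme, read 3.59, 3.60 and 3.72 against 3.33, 3.28 and 3.34, lower without overlap by 0.32 on the log2 scale (adjusted p = 0.250). Its 5 probe sets had differences of both signs, ranging from -0.35 to 0.16. On the probe sets with 0.16 and 0.12 all stem-cell values lay above the others, the latter near background. The main probe set's mean on the total-cell arrays lay 1.49 log2 units above background. Dnmt3b, the other de novo enzyme, differed by 0.09 (interval -0.33 to 0.51), and its mean on the total-cell arrays lay 1.11 log2 units above background.

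Promoter sequences are shown as examples for Uhrf1 and for 4 other members with an unadjusted p under 0.05. Of these 4, Suv39h2, Mbd3 and Kdm5b were on the lower side and Hdac6 on the higher. The starts of Kat2b and Kdm3a, the remaining members with such a p, are not printed. The printed genes do not follow the rank of p, since Kat2b ranked ahead of Mbd3 and Kdm5b. Kat2b starts carried 5 and 6 CG dinucleotides, fewer than any printed start, and Kdm3a starts carried 0, 20 and 31. The printed starts therefore do not stand for the CpG content of all members with such a p. Each line gives the 250 bases before a RefSeq start (mouse assembly GRCm38.p6), 5′ to 3′ along the gene, with CG dinucleotides, the target of DNA methyltransferases, in capitals.
Uhrf1 upstream start, chr17:56303087-56303336, plus strand: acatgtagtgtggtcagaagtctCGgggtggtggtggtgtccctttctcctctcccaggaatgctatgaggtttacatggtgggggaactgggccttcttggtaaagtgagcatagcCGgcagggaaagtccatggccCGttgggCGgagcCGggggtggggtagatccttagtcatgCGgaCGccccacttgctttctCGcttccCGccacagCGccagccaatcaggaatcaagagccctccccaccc
Uhrf1 downstream start, chr17:56304063-56304312, plus strand: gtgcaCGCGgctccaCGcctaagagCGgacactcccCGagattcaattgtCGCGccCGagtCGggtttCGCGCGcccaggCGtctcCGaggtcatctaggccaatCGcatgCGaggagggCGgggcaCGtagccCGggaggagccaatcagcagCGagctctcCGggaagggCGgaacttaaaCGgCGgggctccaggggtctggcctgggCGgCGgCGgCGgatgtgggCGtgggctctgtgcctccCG
Suv39h2, chr2:3474987-3475236, minus strand: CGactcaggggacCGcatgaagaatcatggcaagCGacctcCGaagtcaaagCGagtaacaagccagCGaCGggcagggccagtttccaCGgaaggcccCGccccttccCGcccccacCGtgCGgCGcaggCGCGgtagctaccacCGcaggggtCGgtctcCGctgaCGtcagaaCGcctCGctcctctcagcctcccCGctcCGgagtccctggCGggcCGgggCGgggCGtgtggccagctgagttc
Mbd3, chr10:80399532-80399781, minus strand: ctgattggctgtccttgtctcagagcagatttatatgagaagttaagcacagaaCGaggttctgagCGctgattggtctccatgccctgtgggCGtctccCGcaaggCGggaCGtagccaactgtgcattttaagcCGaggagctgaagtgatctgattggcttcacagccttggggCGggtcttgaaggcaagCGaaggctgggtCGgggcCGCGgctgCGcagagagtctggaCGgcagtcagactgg
Kdm5b, chr1:134559928-134560177, plus strand: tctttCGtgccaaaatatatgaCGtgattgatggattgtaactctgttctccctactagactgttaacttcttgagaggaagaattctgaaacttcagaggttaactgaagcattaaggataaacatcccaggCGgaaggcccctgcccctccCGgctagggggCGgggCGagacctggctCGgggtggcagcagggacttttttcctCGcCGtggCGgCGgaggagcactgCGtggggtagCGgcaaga
Hdac6, chrX:7947890-7948139, minus strand: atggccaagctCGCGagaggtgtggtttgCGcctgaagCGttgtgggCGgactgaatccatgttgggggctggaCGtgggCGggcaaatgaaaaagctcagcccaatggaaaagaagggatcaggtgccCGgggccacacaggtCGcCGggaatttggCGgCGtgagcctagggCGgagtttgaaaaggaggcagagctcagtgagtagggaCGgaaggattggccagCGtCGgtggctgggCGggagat
The upstream and downstream starts of Uhrf1 carried 10 and 30 CG dinucleotides, Suv39h2 27, Mbd3 14, Kdm5b 13 and Hdac6 17. Promoters of the listed members that were in the table (51 starts of 34 genes) had a median of 20, against 6 over 32851 promoters of the same length. The motif TTTNNCGC, a loose form of the pattern bound by E2F factors with 2 open bases, was searched on both strands. It occurred at both starts of Uhrf1 and at 9 of the 51 member starts (17.6%), against 4.28% of all promoters. A cAMP response element, TGACGTCA, occurred at 1 member start, that of Suv39h2, against 1.55% of all promoters. No match of 1 motif overlapped a match of the other. Each motif contains a CG, and no promoters of like CG content were compared, so the part of CG content in these shares was not tested. These matches describe the sequence and are no binding sites.

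Among methyl-CpG binding proteins, Mbd3, a subunit of the NuRD deacetylase and remodelling complex, read 7.35, 7.20 and 7.35 against 6.42, 7.21 and 6.65. Arrays 1 and 3 were lower and array 2 lay within the range of the other group. The difference was -0.54 ± 0.21 (SE; 3 arrays per group; limma adjusted p = 0.168). Without stem-cell array 2 it was -0.77 and passed (adjusted p = 0.0365), and without array 1 it was -0.37 (adjusted p = 0.298), whereas within round 3 it was 0.01 against -0.94 within round 1. Mbd2 was more scattered, with 7.04, 6.58 and 7.41 against 6.39, 6.40 and 7.16 (difference -0.36, adjusted p = 0.446). Mbd1 differed by 0.08, its 5 probe sets ranging from -0.16 to 0.17.

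Histone deacetylases remove acetyl groups, and this family held the only member on the higher side with an unadjusted p under 0.05. Hdac6, a mainly cytoplasmic enzyme that deacetylates tubulin, read 5.12, 5.38 and 5.32 on the total-cell arrays against 6.23, 5.58 and 5.78. All stem-cell values lay above the others, and array 1 was highest. The level was 1.50-fold higher, a log2 difference of 0.59 ± 0.21 (SE, n = 3 per group, limma adjusted p = 0.142). Within rounds 1 and 3 the difference was 1.005 and 0.20. With arrays centred on their hybridization controls, Hdac6 no longer had an unadjusted p under 0.05. With the fluidics module as a block its difference was 0.26, from 1 array each. The class I enzymes lay on the other side of 0: Hdac1 read 8.26, 8.30 and 8.18 against 7.75, 8.25 and 8.01 (difference -0.24, adjusted p = 0.381). Hdac3, the catalytic subunit of NCoR complexes, read 6.73, 6.76 and 6.80 against 6.57, 6.56 and 6.50, groups that did not overlap, with a difference of -0.22 and an adjusted p = 0.384. Hdac2 differed by -0.10. Of the class II enzymes Hdac5 differed by -0.32 and Hdac7 by 0.09, both with overlapping groups. The sirtuins Sirt1 and Sirt2, deacetylases that use NAD, differed by -0.17 and 0.10 with overlapping groups.

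Of the acetyltransferases, Kat2b (PCAF) read 6.28, 6.22 and 6.39 against 5.55, 6.11 and 5.66. The groups did not overlap, and array 2 lay closest to the total-cell values. The difference was -0.52 ± 0.19 (SE; 3 arrays per group; limma adjusted p = 0.150), and -0.69 without stem-cell array 2, which passed (adjusted p = 0.0437). Without array 1 it was -0.41 (adjusted p = 0.233). The other probe set of Kat2b gave -0.10. Its paralog Kat2a (GCN5) differed by -0.06, with a range of -0.27 to -0.06 over 3 probe sets. Crebbp, the coactivator CBP, differed by 0.13 at a level less than 1 log2 unit above background (0.82 on the total-cell arrays).

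Polycomb repressive complex 2 is built from a catalytic subunit, Ezh2 or Ezh1, with Eed and Suz12. Ezh2 read 7.63, 7.73 and 7.66 against 7.10, 7.75 and 7.30, so that array 2 exceeded all total-cell arrays while arrays 1 and 3 lay below them (difference -0.29, adjusted p = 0.366). Eed, which binds the mark, was likewise lowest on array 1, with 6.83, 6.94 and 6.77 against 6.26, 6.78 and 6.42 (-0.36, adjusted p = 0.254). Suz12 read 5.11, 5.13 and 5.52 against 4.75, 4.80 and 5.11, below the others on every stem-cell array (-0.37, adjusted p = 0.286). This lack of overlap rests on stem-cell array 3 at 5.113 against total-cell array 1 at 5.114. The 6 probe sets of Suz12 ranged from -0.44 to 0.01. Ezh1 differed by 0.15 on its brightest probe set and by -0.41 on the other, which had an adjusted p = 0.191.

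Of the 4 listed enzymes that methylate lysine 9 of histone H3, 3 were measured, with negative differences on their brightest probe sets (background 57%) and none past the threshold. Suv39h2, the testis-enriched member of its pair, read 5.71, 5.62 and 5.90 against 4.98, 5.40 and 5.32, with no overlap and a difference of -0.51 ± 0.18 (SE, n = 3 per group, limma adjusted p = 0.149). Its other probe set, near background, gave 0.06. Ehmt2 (G9a) differed by -0.25 on the brightest probe set, with overlapping groups, and by -0.64 on the other, where the values 6.76, 6.35 and 6.86 stood against 5.51, 6.25 and 6.27 (adjusted p = 0.161). Setdb1, which silences retroelements together with Trim28, showed the widest gap between probe sets of 1 gene. On the brightest it read 5.88, 5.61 and 6.08 against 5.44, 5.87 and 5.48 (-0.26, adjusted p = 0.456). On the next, 5.17, 4.92 and 5.11 stood against 3.87, 4.78 and 3.71, without overlap, and the difference of -0.94 (adjusted p = 0.103) was the most negative of all 78 member probe sets.

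The 4 listed demethylases had negative differences (background 57%) and none passed the threshold, while 12 other measured demethylases split into 6 below and 6 above 0. Kdm3a, which removes methylation from lysine 9 and is needed for sperm maturation, read 8.86, 9.02 and 8.91 against 8.51, 8.79 and 8.55, without overlap (-0.31 ± 0.13 SE, n = 3 per group, limma adjusted p = 0.193). Kdm5b, a lysine 4 demethylase, read 7.91, 7.88 and 7.91 against 7.09, 7.71 and 7.58. All stem-cell values lay below the others, array 1 furthest. The difference was -0.44 ± 0.18 (SE; 3 arrays per group; limma adjusted p = 0.182), with -0.42 on the other probe set. Kdm1a (LSD1) read 8.70, 8.72 and 8.70 against 8.06, 8.62 and 8.41, also without overlap (-0.34, adjusted p = 0.230). Kdm5a differed by -0.37 close to background, with arrays 1 and 3 at 2.51 and 2.49 and array 2 at 3.06, within the range of the other group.

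HP1 proteins bind methylated lysine 9. Cbx5 (HP1 alpha) read 6.03, 5.96 and 6.09 against 5.30, 5.92 and 5.85, lower without overlap by 0.34 on the log2 scale (adjusted p = 0.333), and its 5 probe sets ranged from -0.55 to 0.03. Cbx1 (HP1 beta) differed by -0.21, with 5 probe sets from -0.22 to 0.10. Cbx3 (HP1 gamma) had 1 dim probe set of its own (-0.11). A further 4 are shared with the pseudogene Cbx3-ps5, so they cannot be assigned to 1 of them, and they gave -0.01, 0.15, -0.02 and -0.08. Their means on the total-cell arrays were 7.32, 4.01, 7.31 and 2.16 in the same order. Trim28, a corepressor that recruits Setdb1 and HP1, differed by -0.06 (interval -0.43 to 0.32). Of the remodelling ATPases, Smarca4 (BRG1), Smarca5 (SNF2H) and Chd4 of NuRD differed by -0.16, -0.11 and -0.20 with overlapping groups. Probe sets of Smarca5 spread from -0.57 to 0.08, and the lowest read 6.96, 6.84 and 7.20 against 6.16, 6.73 and 6.41 (adjusted p = 0.132).

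**Figure D3:**
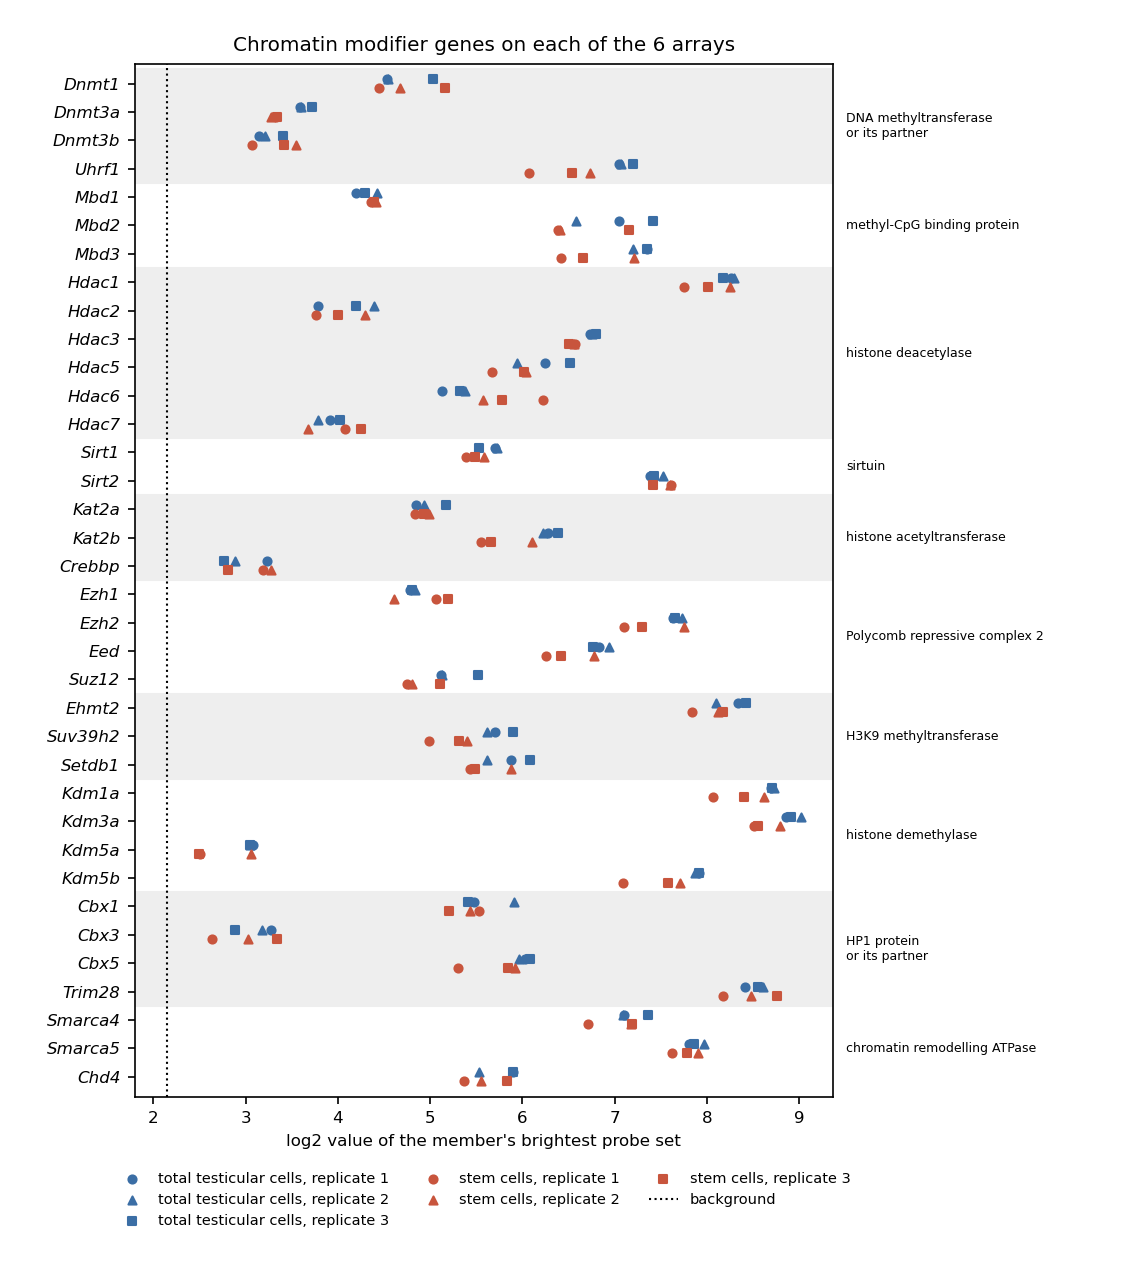
Log2 value (x axis) of each of the 36 measured members (rows, grouped by role) on the 3 total-cell arrays (blue) and 3 stem-cell arrays (red), with 1 symbol shape per replicate number and background at 2.15 as a dotted line. Red circles, stem-cell array 1, are the lowest red symbol in 27 rows, and Hdac6 is the 1 row with all red symbols to the right of the blue ones.

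Several genes were read by more than 1 probe set. Of the 78 member probe sets 0 passed the adjusted threshold, against 1.55% of all 22626 probe sets. Before adjustment (p under 0.05) 13 of the 78 lay lower and 1 higher. Of all 22626 probe sets 2748 (12.1%) lay lower and 2580 (11.4%) higher. Differences were negative for 56 of the 78, a larger share than the 12433 (55%) of all 22626. Among 22 members with more than 1 probe set above background, all were negative in 11, all positive in 3 and of both signs in 8. Among the 11 members with all such probe sets on the lower side, the gap between them was 0.016 in Kdm5b, 0.10 in Kdm1a and in Chd4, 0.13 in Eed, 0.21 in Kat2a, 0.22 in Uhrf1 and 0.25 to 0.68 in the other 5. In Setdb1, Smarca5, Cbx5, Suv39h2 and Ezh1 the gap was 0.68, 0.65, 0.58, 0.57 and 0.56.

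**Figure D4:**
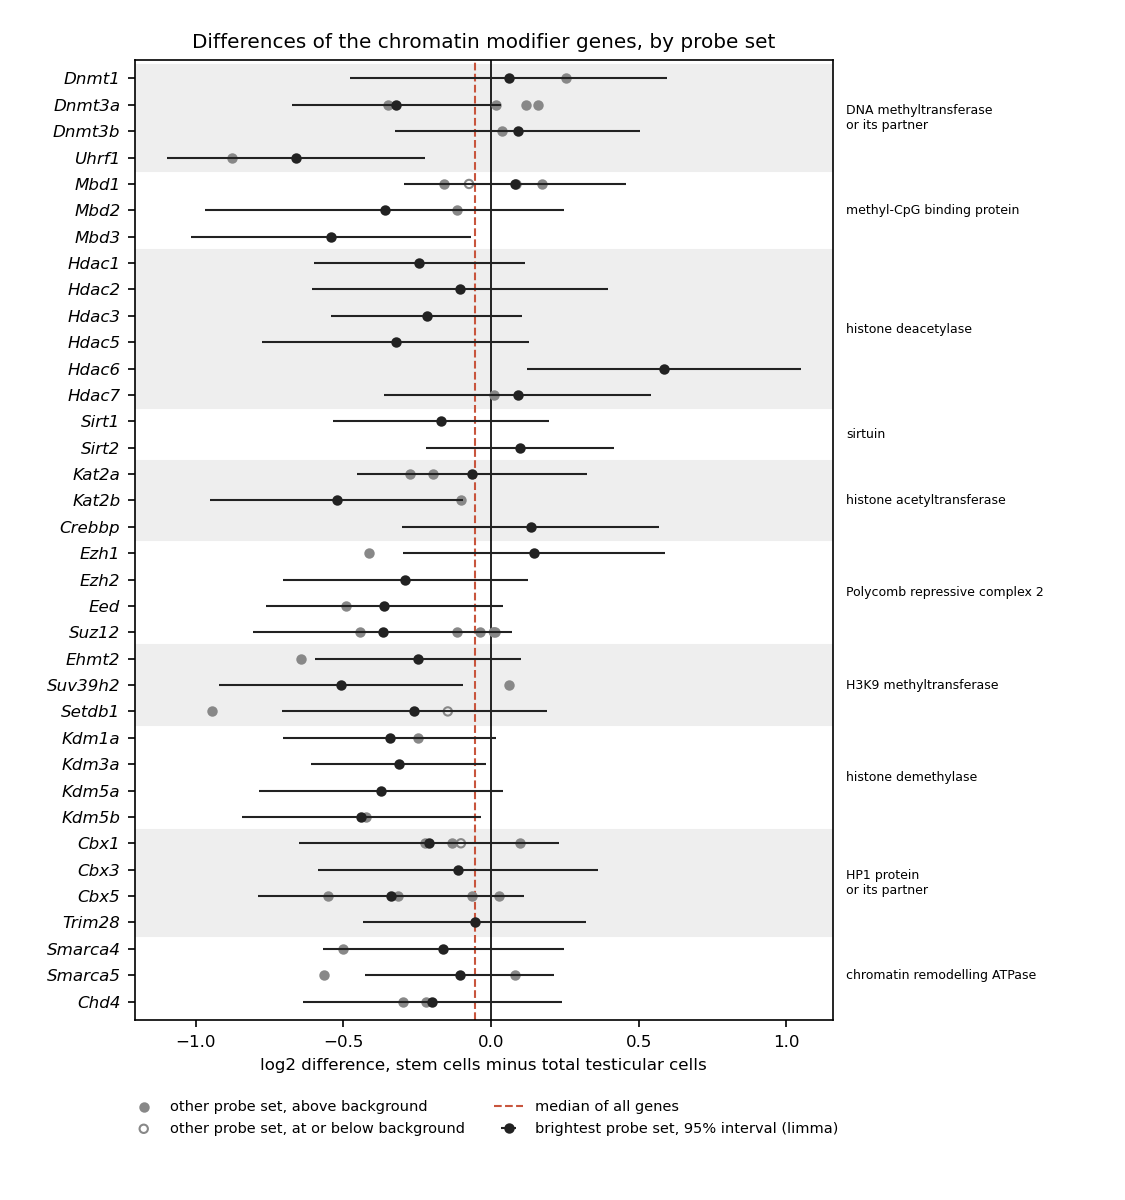
Log2 difference, stem-cell minus total-cell arrays (x axis), of each measured member (rows, grouped by role): black points with 95% intervals from limma for the brightest probe set, grey points for its other probe sets (open at or below background). The dashed line is the median of all genes at -0.05, and black points run from -0.66 for Uhrf1 to 0.59 for Hdac6.

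The wider set of chromatin genes was read in the same way from a list of 169 others, of which 126 were measured. Here too 0 passed at the adjusted threshold in limma, against 1.77% of all genes. Before adjustment 20 (15.9%) lay lower and 6 (4.76%) higher at p under 0.05, against 13.1% and 11.8% of all genes. The share of lower values is thus near the background, and the share of higher values is below it. The median difference was -0.13, against -0.05 over all genes. The smallest p on the higher side belonged to Rbbp7, a histone-binding subunit of NuRD and Polycomb repressive complex 2, at 7.18, 7.69 and 6.94 against 9.51, 8.63 and 8.19. All stem-cell values lay above the rest, a difference of 1.51 (adjusted p = 0.0545) with 1.41 on the other probe set. Next came Smarcd3 (0.76), Smarca1 (0.94) and Kdm4c (0.48), the first a subunit and the second a catalytic ATPase of remodelling complexes, and the third a demethylase. Smarca1 and Kdm4c lay within 0.28 and 0.04 log2 units of background on the total-cell arrays. On the lower side they were Cbx7, a Polycomb reader (-1.02, adjusted p = 0.0567, with -0.08 on its other probe set), Actl6a, a remodelling complex subunit (-0.53), the remodeller Chd1 (-0.64, with probe sets up to 0.01) and Jarid2, a partner of Polycomb repressive complex 2 (-0.62, with probe sets up to 0.28). Rbbp7 shares a complex with Mbd3, Hdac1, Hdac2 and Chd4, whose differences were -0.54, -0.24, -0.10 and -0.20. Dnmt3l, the germline cofactor of Dnmt3a, read 5.09, 4.63 and 4.95 against 3.68, 4.33 and 4.57, a difference of -0.70 (adjusted p = 0.148), and it is named here after its values were seen. Without stem-cell array 2, 13 of the 126 passed, 12 of them lower, against 7.59% of all genes, while Rbbp7 passed without array 1 (1.14, adjusted p = 0.0404) and without array 3 (1.80, adjusted p = 0.0104). With all 6 arrays Rbbp7 passed with the replicate block (adjusted p = 0.00525), the fluidics round block (0.0205), array weights (0.0158), median centring (0.0497) and hybridization control centring (0.00174). More genes passed under these settings: 5.95%, 6.19%, 4.87%, 2.28% and 5.95% of all genes in that order, against 1.77% as deposited. Without stem-cell array 1 or 3 the share was 2.79% and 7.17%. Cbx7 passed with the replicate block (adjusted p = 0.0406), array weights (0.0336), median centring (0.0446) and hybridization control centring (0.00233), and without stem-cell array 2 or 3. Smarca1 passed with the fluidics round block (adjusted p = 0.0278) and without stem-cell array 3.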

How the data were processed

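RNA of 6 cell preparations was hybridised to 1 Affymetrix Mouse430A_2 array each. The values are log2 probe set summaries deposited by the authors (range 1.20 to 13.2). MAS5 and RMA appear in the submitters' processing notes without a stated role, and background correction and normalization are not given in the sources used here. The deposited values were used as they stand. The 39 members, the other gene lists and the tests were chosen with earlier results of these data known.

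After 64 control probe sets were left out, 22626 were tested with limma 3.58.1 in R 4.3.3 (two-sided; lmFit and trended eBayes; 4 residual degrees of freedom plus 5.21 from the prior; Benjamini-Hochberg threshold 0.05), and the procedure was tested on simulated data. Genes were named from GEO's platform annotation: 20380 probe sets with 1 gene, 691 with several (not named) and 1555 with none. Each gene is its probe set with the highest mean. All 39 members had a gene ID in the reference table, 3 had no probe set. Background was the 95th percentile of the means of 27 bacterial control probe sets. Fluidics rounds (starts under 15 minutes apart) and modules came from the instrument records. Named genes were all members and, of the other chromatin genes, the 4 smallest p values in each direction, since fewer than 6 passed. Array number, 3 per group, limits precision.

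Alternatives covered scaling, probe set choice, dim probe sets, batch and replicate blocks, array weights, moderation, threshold and leaving out each array. The fluidics module block and hybridization control centring were chosen after seeing the data.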

Additional observations from a re-analysis of the deposited data

How the results depend on the processing

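In limma 0 members passed the adjusted threshold under every setting that kept all 6 arrays, an adjusted p under 0.10 included. In the unmoderated model 0 of all genes passed as well. The fluidics module block kept all 6 arrays, but its estimate was stem-cell array 2 minus total-cell array 3 alone. It therefore cannot test the members. Of 684 member values under alternatives, 636 kept direction and side of the threshold, 45 reversed and 3 newly passed. Leaving out each array in turn gave 0 to 3 members past the threshold, 1 to 11 lower and 0 to 1 higher at an unadjusted p under 0.05, 11 to 21 without overlap, and a median of -0.25 to -0.14. The highest counts came without stem-cell array 2, where 3 members (8.33%) passed against 7.59% of all genes, 30.6% lay lower against 18.6%, and 58.3% had no overlap against 48.8%. Median centring gave 11 lower members (30.6%, against 21.7% of all genes) and 17 without overlap (47.2%, against 40.2%). Hybridization control centring gave 0 higher members, against 7.03% of all genes. Of the 126 other chromatin genes 2 passed with median centring, the replicate block, the fluidics round block, array weights or hybridization control centring. Under these settings 2.28%, 5.95%, 6.19%, 4.87% and 5.95% of all genes passed. At an adjusted p under 0.10, 4 of the 126 passed, against 7.21% of all genes. With an array left out 0 to 13 passed, against 0.226% to 7.59% of all genes. The causes were not tested.

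Differences near 0 changed sign. With quantile normalization Dnmt3b was -0.013 and Trim28 0.018. With median centring Dnmt1 was -0.052, Dnmt3b -0.022, Mbd1 -0.030, Hdac7 -0.021 and Sirt2 -0.013. With hybridization control centring Dnmt1 was -0.11, Dnmt3b -0.075, Mbd1 -0.083, Hdac7 -0.074, Sirt2 -0.067, Crebbp -0.031 and Ezh1 -0.019. With array weights Hdac2 was 0.031 and Trim28 0.012, and with the round block Dnmt1 was -0.13. The module block compares stem-cell array 2 with total-cell array 3 alone. With it Dnmt1 was -0.35, Hdac1 0.076, Hdac2 0.094, Hdac7 -0.35, Sirt1 0.050, Ezh1 -0.20, Ezh2 0.094, Eed 0.013, Kdm5a 0.018, Cbx1 0.017, Cbx3 0.14 and Smarca5 0.043. The mean of probe sets gave Ezh1 -0.13, and the dimmest probe set above background gave Dnmt3a 0.12, Ezh1 -0.41, Suv39h2 0.059, Cbx5 0.028 and Smarca5 0.081. With an array left out, Dnmt1 ranged from -0.14 to 0.22, Dnmt3b from -0.012 to 0.23, Hdac2 from -0.27 to 0.028, Hdac7 from -0.034 to 0.25, Kat2a from -0.13 to 0.031, Cbx3 from -0.28 to 0.072 and Trim28 from -0.20 to 0.092.

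Deviations of same-numbered arrays correlated at -0.01, 0.01 and 0.30, and not every array correlated best with its own number. With 3 arrays a group, these values cannot tell whether replicate numbers pair the arrays. With the replicate block 0 members passed, 7 were lower and 1 was higher at an unadjusted p under 0.05 (19.4% and 2.78%), and the median was -0.23. Under this block 5.95% of all genes passed, 13.9% were lower and 11.8% higher. Signal within 2 log2 units of background on the total-cell arrays limits 7 members: Crebbp, Kdm5a, Cbx3 (by its own probe set), Dnmt3b, Dnmt3a, Hdac7 and Hdac2.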
